A study of Mus musculus with 32 samples.

Results

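Fatty acid oxidation was examined through 55 genes, among 22180 genes measured, whose symbols mark them as acyl-CoA synthetases, carnitine palmitoyltransferases, acyl-CoA dehydrogenases and oxidases, hydratases, thiolases, electron transfer flavoproteins or acyl-CoA thioesterases, together with the regulators Ppara and Ppargc1a. They were taken by symbol, with no value in the rule, as the gene families Acad, Acox, Acot, Acsl, Acsm, Acaa, Cpt, Hadh, Ech, Eci and Etf plus Ehhadh, Acat1, Ppara and Ppargc1a, although earlier results of these data were known when the families were chosen. The site of each product was assigned from general knowledge and was not checked here. Of the 55 products, 32 were assigned to the mitochondrion, 11 to the peroxisome and 4 to both or an uncertain site. A further 3 were placed at the endoplasmic reticulum (ER) and outer mitochondrial membrane, 2 in the cytosol, 2 in the nucleus and 1 in the ER. Counts by compartment rest on these assignments. Acsl1, Acsl3, Acsm3, Cpt1b, Echdc1 and Acot8 were not analysed here, because no feature used here named any of them alone.

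The samples were whole kidneys of male mice of strain 129, either Col4a3-/- (KO) or Col4a3+/+ littermates (WT), taken at 4 or 7 weeks of age, with 8 mice in each of the 4 groups and 1 Affymetrix Mouse Gene 2.0 ST array for each of the 32 mice. Col4a3 encodes a chain of the type IV collagen of the glomerular basement membrane, and its loss in every cell of the mouse gives a model of Alport syndrome, an inherited and progressive kidney disease. No group carried a treatment in the labels. Values are log2 signals after RMA, the array method that corrects background, quantile-normalizes the arrays and summarises probes, so a difference of 1 is a 2-fold difference, and the number of arrays limits the precision.

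Proximal tubule cells draw most of their energy from fatty acids. Acyl-CoA synthetases activate the acid, the carnitine palmitoyltransferases carry long chains into the mitochondrion, and each turn of β-oxidation then passes through a dehydrogenase, a hydratase, a hydroxyacyl-CoA dehydrogenase and a thiolase. Peroxisomes begin with an acyl-CoA oxidase instead and shorten very long and branched chains. PPARα, encoded by Ppara, is a nuclear receptor that switches on genes of both routes, and PGC-1α, encoded by Ppargc1a, is its coactivator.

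The bases just before an annotated transcription start of 5 genes are printed here to show the genes with the outermost values and what a window with and without a receptor motif looks like. They are Acsm1 and Eci3, the mitochondrial and the peroxisomal gene furthest below WT in KO kidneys at 7 weeks, Acsl4, the gene furthest above WT, and Acadm and Acot4, lower genes of each organelle whose windows hold a receptor motif. Each sequence is the 250 bases before the 1 start listed for the gene, on its own strand, from RefSeq on build GRCm38.p6, and capitals mark AGGTCA or its reverse complement TGACCT, the motif of a nuclear receptor monomer. The windows are chr3:153944644-153944893 (minus strand) for Acadm, chr12:84038129-84038378 (plus) for Acot4, chr7:119617562-119617811 (plus) for Acsm1, chr13:34963810-34964059 (minus) for Eci3 and chrX:142390536-142390785 (minus) for Acsl4. The start used is the 5′ end of the RefSeq gene for Acadm, but lies inside the gene's bounds by 55 bases in Acsm1, 179 in Eci3, 267 in Acsl4 and 1125 in Acot4. The windows of Acot4 and Acsl4 therefore lie wholly within the gene, and 179 of the 250 bases of Eci3 and 55 of those of Acsm1 do.
Acadm: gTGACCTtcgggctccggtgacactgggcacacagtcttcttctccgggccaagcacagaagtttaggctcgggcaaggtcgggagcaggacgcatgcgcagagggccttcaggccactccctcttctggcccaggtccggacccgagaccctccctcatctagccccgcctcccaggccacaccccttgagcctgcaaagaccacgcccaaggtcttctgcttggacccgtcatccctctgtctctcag
Acot4: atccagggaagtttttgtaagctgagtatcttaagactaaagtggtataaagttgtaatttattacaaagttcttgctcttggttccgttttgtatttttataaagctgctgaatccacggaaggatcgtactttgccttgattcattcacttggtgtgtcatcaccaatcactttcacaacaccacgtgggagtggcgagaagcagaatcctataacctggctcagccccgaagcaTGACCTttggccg
Acsm1: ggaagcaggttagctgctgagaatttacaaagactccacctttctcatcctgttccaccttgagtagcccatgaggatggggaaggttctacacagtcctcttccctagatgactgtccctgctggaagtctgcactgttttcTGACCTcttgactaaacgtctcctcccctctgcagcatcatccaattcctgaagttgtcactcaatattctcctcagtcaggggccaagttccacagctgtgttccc
Eci3: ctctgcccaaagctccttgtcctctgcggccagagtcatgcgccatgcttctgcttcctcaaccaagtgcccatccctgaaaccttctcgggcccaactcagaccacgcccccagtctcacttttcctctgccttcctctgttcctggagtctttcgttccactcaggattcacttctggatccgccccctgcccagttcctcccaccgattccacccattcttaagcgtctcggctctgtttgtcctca
Acsl4: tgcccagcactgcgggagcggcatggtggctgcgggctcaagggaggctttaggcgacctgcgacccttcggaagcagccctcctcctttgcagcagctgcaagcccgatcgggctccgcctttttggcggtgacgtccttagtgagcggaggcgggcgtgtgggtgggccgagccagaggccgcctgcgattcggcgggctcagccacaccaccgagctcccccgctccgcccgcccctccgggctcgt
Counted from the start, the capitals begin at -249 in Acadm, -13 in Acot4 and -107 in Acsm1, and the windows of Eci3 and Acsl4 hold none.

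RefSeq windows of 250 bases before to 50 after the start were at hand for 50 of the 55 genes, 57 windows in all, beside 32851 windows of 27025 genes. On either strand, the hexamer AGGTCA occurred in 15 of the 57 windows (26.3%) and in 16.3% of all windows. It was in the windows of 13 genes, which were 7 of the 30 lower at 7 weeks, 1 of the 4 higher and 5 of the 16 not called. An exact direct repeat of the hexamer with 1 base between its arms (DR1), the type of element bound by PPARα with its partner RXR, occurred in 0 of the 57 windows and in 0.0396% of all windows. Inexact copies were not counted. At 13 of 32851 windows the exact repeat is too rare for 0 of 57 to tell whether these genes lack the element. The motif TCAAGGTCA of the estrogen-related receptors occurred in 1 window, that of Acsl6, and in 0.423% of all windows. Both longer motifs contain the hexamer, and a match is a description of the letters.

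At 7 weeks 35 of the 55 genes were lower and 4 were higher in KO than in WT kidneys, and 16 did not pass (limma with Benjamini-Hochberg adjustment over 22180 genes, adjusted p below 0.05, n = 8 per group). Of all genes 16.7% were lower and 15.6% higher in the same comparison. The median log2 difference was -0.41 over the 55 genes and -0.06 over all genes. Folds of the 35 lower genes ran from 1.15 to 2.51 with a median of 1.46, and 13 reached 1.5-fold. In 23 of the 55 genes all 8 KO mice lay below all 8 WT mice, which held for 5.42% of all genes. In 2 genes, Acsl4 and Acsl5, all KO mice lay above all WT mice, against 7.62% of all genes. Since whole kidney was measured, fewer cells of a type and less RNA per cell cannot be told apart. The mean array median over the named genes was 0.11 higher in KO than in WT mice at 7 weeks, and centring each array on it, an alternative added after seeing the data, gave 47 lower and 3 higher genes of the 55. With that centring 8324 of all 22180 genes were lower and 2568 higher, against 3698 and 3469 without it. Of all called genes 23.6% were then higher in KO kidneys, against 48.4%.

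**Figure D1:**
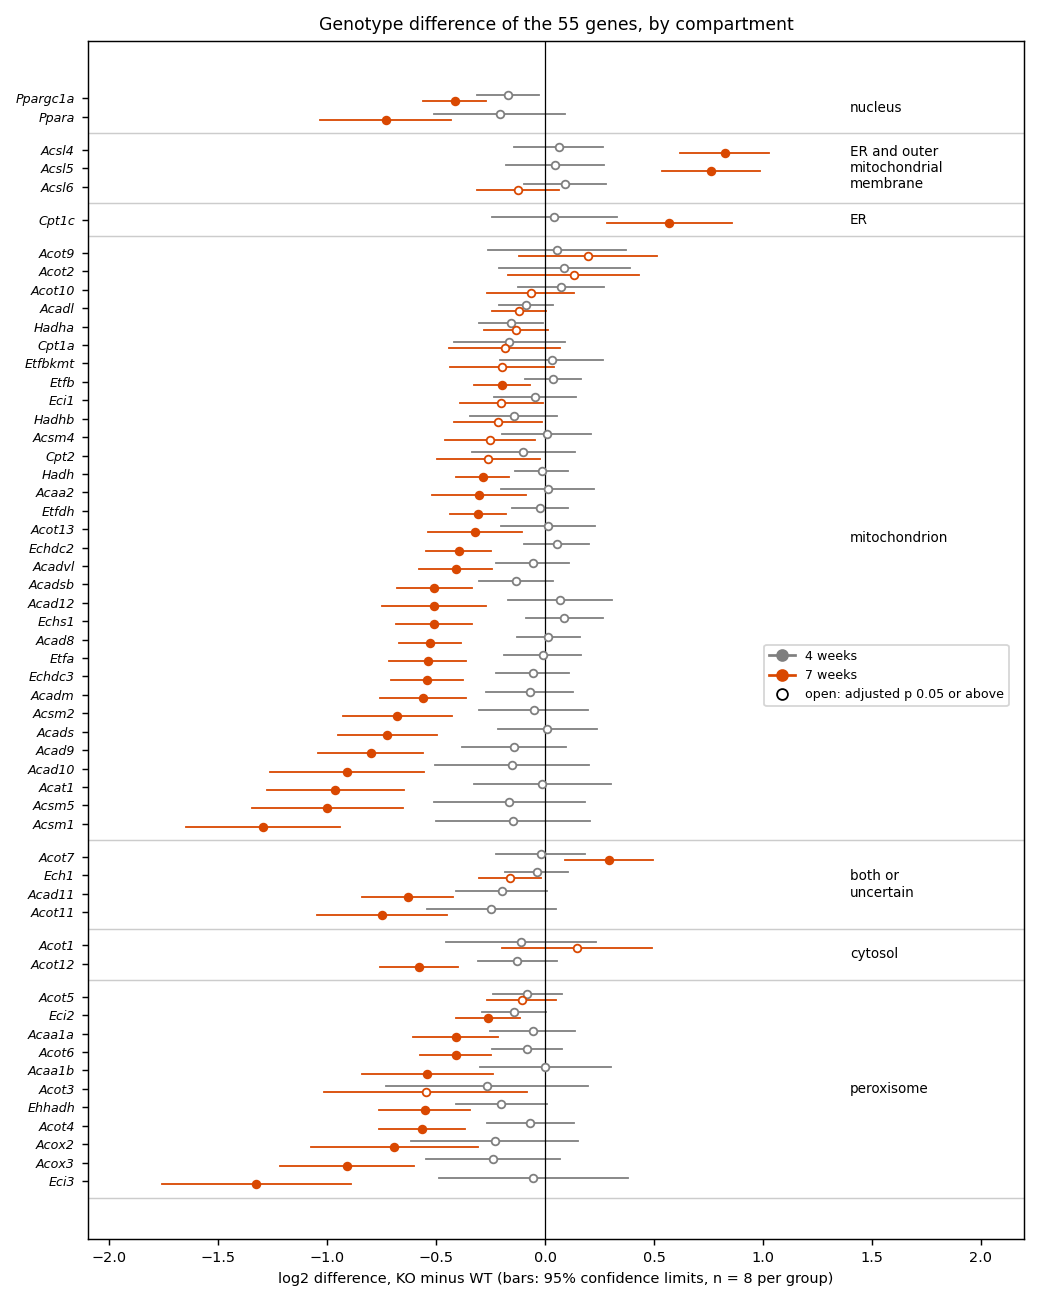
The log2 difference between KO and WT kidneys (horizontal axis) is plotted for each of the 55 genes, grouped by compartment, at 4 weeks (grey) and 7 weeks (orange), with bars for 95% confidence limits and filled points for adjusted p below 0.05. All 55 points at 4 weeks are open, while 39 at 7 weeks are filled, 35 of them left of 0.

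Both regulators were lower at 7 weeks. Ppara signals ran from 9.34 to 9.72 in WT mice (median 9.45) and from 8.06 to 9.14 in KO mice (median 8.67). The 2 genotypes did not overlap, and the difference was -0.73 ± 0.15 (SE, 1.66-fold, adjusted p = 0.000186). Ppargc1a ran from 10.75 to 10.97 in WT mice (median 10.89) and from 10.25 to 10.69 in KO mice (median 10.44). No KO mouse reached the WT range here either, with a difference of -0.42 ± 0.07 (1.33-fold, adjusted p = 1.7e-05).

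Synthetases join the acid to coenzyme A. The medium-chain enzymes of the Acsm family sit in the mitochondrial matrix, and 3 of 4 were lower. Acsm1 ran from 8.48 to 8.86 in WT mice (median 8.68) and from 6.47 to 8.33 in KO mice (median 7.33), with no overlap. Its difference of -1.30 ± 0.17 (2.45-fold, adjusted p = 3.5e-07) was, with that of Eci3, one of the 2 decreases past 2-fold. Acsm5 ran from 10.52 to 11.28 in WT mice (median 11.09) and from 9.11 to 10.64 in KO mice (median 10.20). The highest KO mouse lay above the lowest WT mouse, and the difference was -1.0 ± 0.17 (95% confidence limits -1.35 to -0.65, adjusted p = 1.85e-05). For Acsm2 the 8 KO mice (11.10 to 12.58, median 12.16) lay below the 8 WT mice (12.65 to 12.81, median 12.71), by 0.68 ± 0.12 (1.6-fold, adjusted p = 4.48e-05). Acsm4, with signals near the low end of the array at 3.70 to 4.60 at 7 weeks, did not pass (-0.25 ± 0.10, adjusted p = 0.0527), but passed with arrays centred on their median over all features (0.0381), with array weights (0.00661) and in 7 of 32 fits that left out 1 mouse. Acsm5, Acsm2, Acsm1 and Acsm4 follow each other on chromosome 7 in the RefSeq table.

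Among the long-chain synthetases, 2 of 3 were higher. Acsl4, which prefers arachidonic acid and other polyunsaturated chains, ran from 8.70 to 9.13 in WT mice (median 8.97) and from 9.43 to 10.27 in KO mice (median 9.70). All KO mice lay above all WT mice, with a difference of 0.82 ± 0.10 (1.77-fold, adjusted p = 6.27e-08), the smallest p of the 55 genes in this comparison. Acsl5, a long-chain synthetase of the ER and outer mitochondrial membrane, ran from 8.48 to 8.93 in WT mice (median 8.78) and from 9.14 to 9.89 in KO mice (median 9.54). It too showed no overlap, and rose by 0.76 ± 0.11 (1.7-fold, adjusted p = 1.47e-06). Acsl6 did not pass (-0.12 ± 0.09, adjusted p = 0.329).

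**Figure D2:**
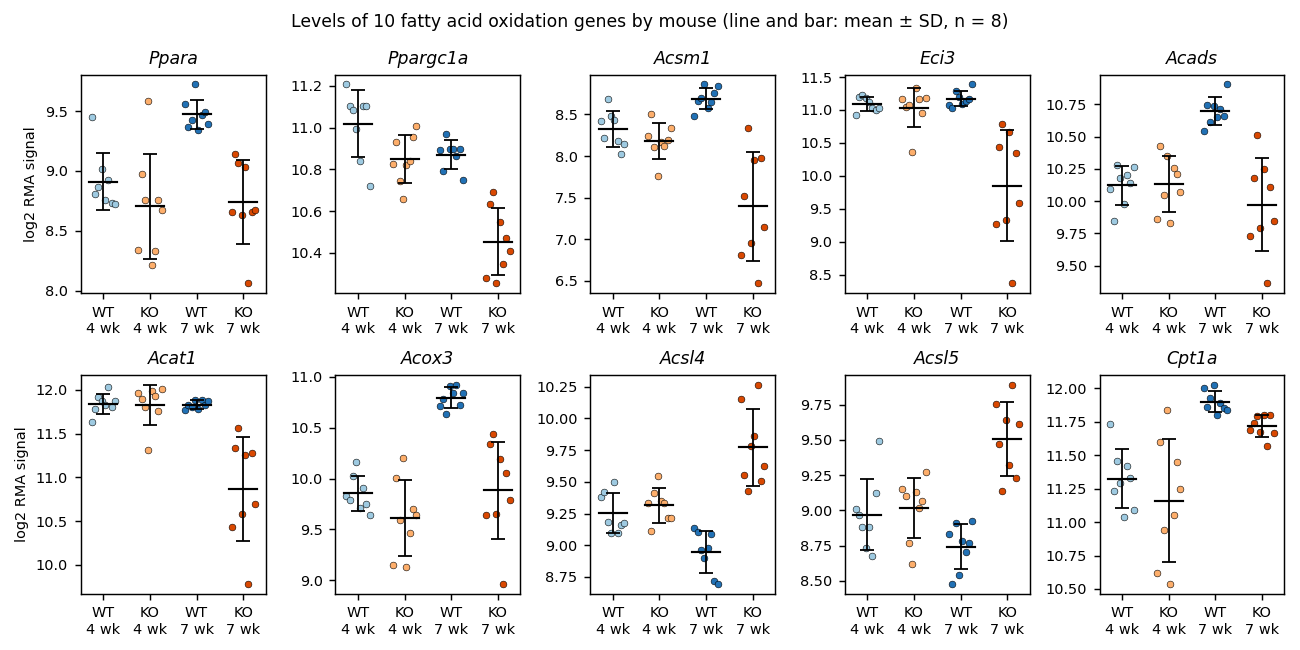
Each point is the log2 RMA signal (vertical axis) of 1 mouse for 10 genes in the 4 groups, with the mean and SD of 8 mice as line and bar. At 7 weeks the KO mice lie below all WT mice for Ppara, Ppargc1a, Acsm1, Eci3, Acads, Acat1 and Acox3 and above them for Acsl4 and Acsl5, while for Cpt1a the groups touch at 11.80.

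Carnitine palmitoyltransferases admit long chains to the mitochondrion, and neither mitochondrial form passed at 7 weeks. Cpt1a, the outer-membrane enzyme that malonyl-CoA inhibits, ran from 11.80 to 12.03 in WT mice (median 11.88) and from 11.57 to 11.80 in KO mice (median 11.71). The ranges met at 11.80, with a difference of -0.19 ± 0.13 (95% confidence limits -0.44 to 0.07, adjusted p = 0.276). The same difference passed when only the 7-week mice were fitted (adjusted p = 0.00739), where the spread of the 4-week mice does not enter. Cpt2, the inner-membrane partner, showed -0.26 ± 0.12 (adjusted p = 0.0841), with an adjusted p of 0.0163 in that fit. Cpt1c, an ER form best known from neurons, was higher in KO kidneys by 0.57 ± 0.14 (1.49-fold, adjusted p = 0.00178). Its KO mice (6.01 to 7.43, median 7.11) overlapped the WT mice (6.00 to 6.55, median 6.39).

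Acyl-CoA dehydrogenases catalyse the opening step of each mitochondrial turn, and 7 of 8 were lower, with a median difference of -0.60 over the 8. Acad9, which also assembles respiratory complex I, ran from 9.29 to 9.76 in WT mice (median 9.52) and from 8.18 to 9.09 in KO mice (median 8.77), a difference of -0.80 ± 0.12 (1.74-fold, adjusted p = 1.88e-06). Acads, the short-chain enzyme, ran from 10.55 to 10.90 in WT mice (median 10.68) and from 9.36 to 10.51 in KO mice (median 9.98), a difference of -0.72 ± 0.11 (1.65-fold, adjusted p = 3.73e-06). Acad11, a very long-chain enzyme reported in both organelles, ran from 11.13 to 11.25 in WT mice (median 11.18) and from 10.17 to 10.82 in KO mice (median 10.61), a difference of -0.63 ± 0.10 (adjusted p = 8.72e-06). In these 3 genes no KO mouse reached a WT mouse. The others lower were Acad10 (1.88-fold), the medium-chain enzyme Acadm (1.48-fold), Acad12 (1.42-fold) and the very long-chain enzyme Acadvl (1.33-fold). Acadl, the long-chain enzyme, did not pass, with a difference of -0.12 ± 0.06 (95% confidence limits -0.25 to 0.00, adjusted p = 0.131). It passed with arrays centred on the named genes (adjusted p = 0.00269). Acad12 and Acad10 are neighbours on chromosome 5.

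Branched-chain dehydrogenases of amino acid breakdown carry Acad symbols as well, and both were lower. Acad8, isobutyryl-CoA dehydrogenase of the valine route, ran from 9.64 to 9.74 in WT mice (median 9.69) and from 8.80 to 9.38 in KO mice (median 9.19), a difference of -0.53 ± 0.07 (1.44-fold, adjusted p = 3.47e-07). Acadsb, the 2-methyl branched-chain enzyme of the isoleucine route, ran from 9.53 to 9.70 in WT mice (median 9.61) and from 8.88 to 9.42 in KO mice (median 9.09), a difference of -0.51 ± 0.08 (1.42-fold, adjusted p = 1.17e-05). The genotypes did not overlap for either gene.

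Electrons from these dehydrogenases pass through the electron transfer flavoprotein, and 3 of its 4 genes were lower. Etfa, the α subunit, ran from 9.98 to 10.27 in WT mice (median 10.09) and from 9.05 to 9.83 in KO mice (median 9.58), with no overlap and a difference of -0.54 ± 0.09 (1.45-fold, adjusted p = 7.42e-06). Etfdh, the oxidoreductase that hands the electrons to ubiquinone, ran from 10.26 to 10.53 in WT mice (median 10.41) and from 9.82 to 10.28 in KO mice (median 10.13), a difference of -0.31 ± 0.06 (adjusted p = 0.000219). Etfb, the β subunit, ran from 11.86 to 12.05 in WT mice (median 11.90) and from 11.46 to 11.94 in KO mice (median 11.73), a difference of -0.20 ± 0.06 (1.15-fold, adjusted p = 0.0146). Etfdh and Etfb overlapped between genotypes at the ends of their ranges. Etfbkmt, which methylates the β subunit, did not pass (-0.20 ± 0.12, adjusted p = 0.207).

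In the middle of the cycle, 2 of 4 hydratase and hydroxyacyl-CoA dehydrogenase genes were lower. Echs1, the short-chain enoyl-CoA hydratase, ran from 11.26 to 11.48 in WT mice (median 11.37) and from 10.48 to 11.18 in KO mice (median 10.86), a difference of -0.51 ± 0.09 (1.42-fold, adjusted p = 1.74e-05). Hadh, the medium- and short-chain hydroxyacyl-CoA dehydrogenase, ran from 12.89 to 12.95 in WT mice (median 12.92) and from 12.29 to 12.81 in KO mice (median 12.69), a difference of -0.29 ± 0.06 (1.22-fold, adjusted p = 0.000261). Neither gene overlapped between genotypes. Hadha and Hadhb, the subunits of the long-chain trifunctional protein and neighbours on chromosome 5, did not pass, with differences of -0.13 ± 0.07 (95% confidence limits -0.28 to 0.01) and -0.22 ± 0.10 (-0.42 to -0.02, adjusted p = 0.0932). Hadha passed when only the 7-week mice were fitted (adjusted p = 0.0492). With arrays centred on the named genes both were lower (adjusted p = 0.00685 and 0.0072), as were 8324 of all 22180 genes. Hadhb signals were low, at 5.99 to 6.73 in WT and 5.95 to 6.49 in KO mice. The mean array medians of the named genes were 6.21 and 6.33 in these groups. Both hydratase-family genes were lower. Echdc3 ran from 7.92 to 8.29 in WT mice (median 8.12) and from 7.31 to 7.83 in KO mice (median 7.62), a difference of -0.54 ± 0.08 (adjusted p = 2.76e-06), and Echdc2 was lower by 0.40 ± 0.07 (adjusted p = 5.19e-05).

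Thiolases close the cycle, and all 4 were lower. Acat1, the mitochondrial acetoacetyl-CoA thiolase of ketone and isoleucine metabolism, ran from 11.77 to 11.89 in WT mice (median 11.83) and from 9.78 to 11.57 in KO mice (median 10.98). The 8 WT mice lay within a narrow band, every KO mouse was below it, and the difference was -0.96 ± 0.15 (1.95-fold, adjusted p = 7.33e-06). Acaa2, a mitochondrial thiolase of β-oxidation, was lower by 0.30 ± 0.10 (1.23-fold, adjusted p = 0.0247). That call was lost without any 1 of KO mice 4, 6 and 8 or WT mice 1 and 2, with adjusted p up to 0.0722. The peroxisomal thiolases are a pair of near-identical genes whose signals may be mixed. Acaa1a ran from 6.54 to 6.97 in WT mice (median 6.80) and from 6.13 to 6.66 in KO mice (median 6.36), a difference of -0.41 ± 0.10 (adjusted p = 0.000959). Acaa1b ran from 7.71 to 8.20 in WT mice (median 8.01) and from 6.84 to 8.02 in KO mice (median 7.40), a difference of -0.54 ± 0.15 (adjusted p = 0.00462). Both pairs of ranges overlapped.

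Of the 11 peroxisomal genes, 9 were lower and 0 higher at 7 weeks, against 16.7% and 15.6% of all genes. Their median difference was -0.55. Acox3, the oxidase of branched chains, ran from 10.63 to 10.92 in WT mice (median 10.81) and from 8.97 to 10.44 in KO mice (median 9.92), with no overlap and a difference of -0.91 ± 0.15 (1.88-fold, adjusted p = 1.29e-05). Acox2, the oxidase of bile acid intermediates, ran from 8.14 to 9.05 in WT mice (median 8.54) and from 6.81 to 8.45 in KO mice (median 8.02), overlapping, with a difference of -0.69 ± 0.19 (1.62-fold, adjusted p = 0.00427). Ehhadh, the bifunctional hydratase and dehydrogenase that follows the oxidases, ran from 11.31 to 11.61 in WT mice (median 11.44) and from 10.44 to 11.24 in KO mice (median 10.90), with no overlap and a difference of -0.55 ± 0.10 (1.47-fold, adjusted p = 6.41e-05).

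Enoyl-CoA isomerases move double bonds of unsaturated chains into place, and 2 of 4 were lower. Eci3 ran from 11.03 to 11.39 in WT mice (median 11.15) and from 8.36 to 10.78 in KO mice (median 9.96). No KO mouse reached the WT mice, and the difference of -1.33 ± 0.21 (2.51-fold, adjusted p = 7.39e-06) was the largest of the 55 genes. Its neighbour on chromosome 13 and close relative Eci2 ran from 8.90 to 9.23 in WT mice (median 8.99) and from 8.52 to 8.92 in KO mice (median 8.75), overlapping slightly, with a difference of -0.26 ± 0.07 (1.2-fold, adjusted p = 0.00425). The mitochondrial Eci1 (-0.20 ± 0.09, adjusted p = 0.0994) and Ech1, reported in both organelles (-0.16 ± 0.07, adjusted p = 0.0821), did not pass. With array weights both did (adjusted p = 0.0344 and 0.0419).

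Acyl-CoA thioesterases undo activation by releasing the free acid, and of 12 genes 5 were lower, 1 was higher and 6 did not pass. Acot12, a cytosolic acetyl-CoA hydrolase, ran from 12.42 to 12.55 in WT mice (median 12.50) and from 11.18 to 12.19 in KO mice (median 11.97), with no overlap and a difference of -0.58 ± 0.09 (1.49-fold, adjusted p = 3.56e-06). Acot4, a peroxisomal succinyl-CoA thioesterase, ran from 8.29 to 8.63 in WT mice (median 8.42) and from 7.49 to 8.26 in KO mice (median 7.88), a difference of -0.57 ± 0.10 (adjusted p = 2.22e-05). A further feature for Acot4 gave -0.29 ± 0.10. Acot6, also peroxisomal, ran from 7.65 to 8.11 in WT mice (median 8.02) and from 7.37 to 7.80 in KO mice (median 7.59), a difference of -0.41 ± 0.08 (adjusted p = 0.000106). The other lower members were Acot11 (1.68-fold) and Acot13 (1.25-fold). Acot7, a long-chain thioesterase abundant in brain, ran from 6.56 to 7.14 in WT mice (median 6.80) and from 6.86 to 7.32 in KO mice (median 7.16), a difference of 0.29 ± 0.10 (1.23-fold, adjusted p = 0.0221). The Acot7 call was lost without KO mouse 6 (adjusted p = 0.0519) or WT mouse 7 (0.055), and with arrays centred on the named genes (0.18, adjusted p = 0.115).

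Acot2, Acot1, Acot4, Acot3, Acot5 and Acot6 lie in a row on chromosome 12 and are close relatives, so probes may not separate them fully. Within that row Acot4 and Acot6 were lower, and Acot1 (0.15 ± 0.17), Acot2 (0.13 ± 0.15), Acot3 (-0.55 ± 0.23, adjusted p = 0.0642) and Acot5 (-0.11 ± 0.08) did not pass. The interval of Acot3 ran from -1.01 to -0.08, and its call appeared without genes of mean signal below 6 (adjusted p = 0.0474) and with array weights (0.0164). It also passed when only the 7-week mice were fitted (adjusted p = 0.00152), where the spread of the 4-week mice does not enter. Centring on the named genes (0.0182) and leaving out WT 4-week mice 5 and 8 (0.0499) gave the call as well. Acot9 and Acot10, mitochondrial forms, also did not pass (0.20 ± 0.15 and -0.07 ± 0.10).

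The mitochondrial and peroxisomal genes were set side by side by counts and medians, with no test between them. At 7 weeks 21 of 32 mitochondrial genes were lower and 0 higher, with a median difference of -0.36, and 15 of the 32 had no overlap between genotypes. Of the 11 peroxisomal genes 9 were lower and 4 had no overlap. Over all genes 16.7% were lower, and in 5.42% all KO mice lay below all WT mice. In each mouse the mean over the 11 peroxisomal genes was subtracted from the mean over the 32 mitochondrial genes. This gap, whose size depends on the probes and is read between groups alone, ran from 1.24 to 1.43 in WT mice at 7 weeks (mean 1.32) and from 1.36 to 1.62 in KO mice (mean 1.47). At 4 weeks it ran from 1.09 to 1.48 in WT mice (mean 1.35) and from 1.31 to 1.56 in KO mice (mean 1.44). The ranges of the genotypes overlapped at both ages.

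KO mice at 7 weeks differed among themselves in these genes. Mice 1, 4, 6 and 8 had all 35 lower genes below every WT mouse, and their median distances from the WT mean over those genes were -0.65, -0.70, -0.99 and -0.64. Mice 2, 3, 5 and 7 had 30, 29, 26 and 27 of the 35 below every WT mouse, with medians of -0.32, -0.30, -0.32 and -0.40. The 35 genes were chosen by the same contrast, so these figures describe the mice and test nothing. In 49 of the 55 genes (89.1%) the SD was larger in KO than in WT mice at 7 weeks, which held for 52.2% of all genes. At 4 weeks it was larger in KO mice for 33 of the 55 (60%), against 54.3% of all genes.

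Markers of other cell types moved in the same mice. The counts below stand beside 16.7% lower and 15.6% higher of all genes at 7 weeks. Proximal tubule markers, of which Kap, Keg1 and Slc34a1 had the highest signals, were lower at 7 weeks in 23 of 25 measured, with a median of -0.47, and their mean signal ran from 12.07 to 12.16 in WT and from 10.87 to 12.01 in KO mice. In KO mice 1 to 8 that mean was 11.15, 11.77, 12.01, 11.32, 11.89, 10.87, 11.87 and 11.43, lowest in mice 6, 1, 4 and 8. Macrophage markers, led by C1qb, Csf1r and Lyz2, were higher in 13 of 13, with a median of 2.40, and their mean ran from 6.33 to 6.63 in WT and from 8.01 to 9.40 in KO mice. It was 9.28, 8.32, 8.01, 9.28, 8.41, 9.40, 8.55 and 9.20 in KO mice 1 to 8. Fibroblast markers were higher in 8 of 8 (median 1.82), and of 14 loop and distal tubule markers 6 were lower and 1 higher. Of 7 podocyte markers listed only 4 were measured. They passed in 0 of 4 in limma, and 0 of 4 had an unadjusted p below 0.05. Genes marking mitochondrial mass outside fatty acid oxidation were lower in 11 of 13, with a median of -0.24. The part of these shifts in the differences of the 55 genes was not tested.

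**Figure D3:**
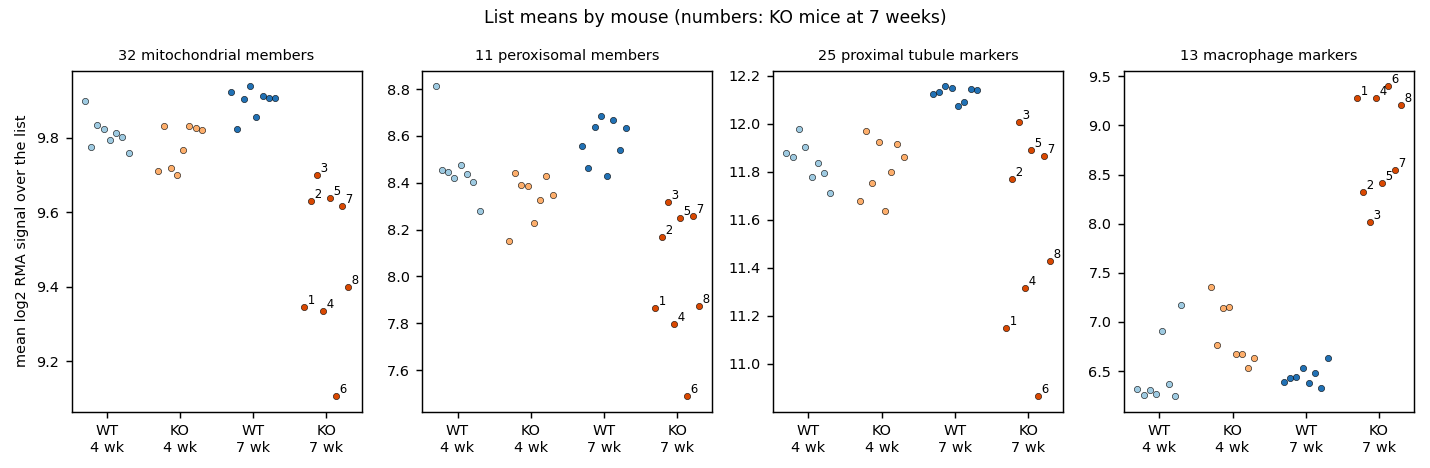
Each point is the mean log2 RMA signal (vertical axis) of 1 mouse over 32 mitochondrial genes, 11 peroxisomal genes, 25 proximal tubule markers or 13 macrophage markers, in the 4 groups, with KO mice at 7 weeks numbered. KO mice 1, 4, 6 and 8 are the lowest 4 in the panels of both gene groups and of the proximal tubule markers and the highest 4 in the macrophage panel.

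At 4 weeks none of the 55 genes passed in limma, while 0.0316% of all genes were higher and 0.00902% lower. Before adjustment 2 of the 55 had p below 0.05, Hadha and Ppargc1a, both lower in KO mice. Of all 22180 genes 2044 had p below 0.05 before adjustment, 1107 of them lower in KO mice. Ppargc1a ran from 10.72 to 11.21 in WT mice (median 11.09) and from 10.66 to 11.01 in KO mice (median 10.83), a difference of -0.17 ± 0.07 (adjusted p = 0.453), and the ranges overlapped. Ppara ran from 8.72 to 9.45 in WT and from 8.21 to 9.58 in KO mice, a difference of -0.21 ± 0.15 (adjusted p = 0.699). Over the 55 genes the differences ran from -0.27 to 0.09 with a median of -0.06, and 37 were below 0, as were 11461 of all 22180 genes. At this age macrophage markers passed in 0 of 13 in limma, with 6 of 13 higher at an unadjusted p below 0.05 and a median of 0.36. Of all 22180 genes 937 were higher at that unadjusted threshold. Proximal tubule markers passed in 0 of 25, with 0 of 25 before adjustment and a median of -0.03.

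Whether the genotype difference changed between the ages was tested directly. The difference at 7 weeks was lower than at 4 weeks in 24 of the 55 genes and higher in 2 (limma interaction, adjusted p below 0.05), against 7.24% and 9.8% of all genes. Acad8 had the smallest p, with a genotype difference of 0.02 at 4 weeks and -0.53 at 7 weeks, an interaction of -0.54 ± 0.10 (adjusted p = 0.00021). Its signals at 4 weeks ran from 9.16 to 9.41 in WT mice (median 9.31) and from 9.11 to 9.46 in KO mice (median 9.33), largely the same range. Echs1 ran from 11.14 to 11.46 in WT mice (median 11.36) and from 11.06 to 11.65 in KO mice (median 11.46) at 4 weeks, and its interaction was -0.60 ± 0.12 (adjusted p = 0.000707). Acsm1 ran from 8.02 to 8.69 in WT mice (median 8.32) and from 7.76 to 8.51 in KO mice (median 8.18) at 4 weeks, with an interaction of -1.15 ± 0.24 (adjusted p = 0.00106). Acads ran from 9.84 to 10.28 in WT mice (median 10.16) and from 9.83 to 10.42 in KO mice (median 10.14), with an interaction of -0.74 ± 0.16 (adjusted p = 0.00113). All 4 genes, which were picked by smallest interaction p, overlapped between genotypes at 4 weeks and not at 7. At 4 weeks the KO mice lay all below the WT mice in 0 of the 55 genes and all above in 0. Over all 22180 genes these counts were 5 and 6.

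The 2 genes whose genotype difference rose were both long-chain synthetases. Acsl4 ran from 9.10 to 9.50 in WT mice (median 9.18) and from 9.11 to 9.55 in KO mice (median 9.33) at 4 weeks, with an interaction of 0.76 ± 0.14 (adjusted p = 0.000252). Acsl5 ran from 8.68 to 9.49 in WT mice (median 8.93) and from 8.62 to 9.27 in KO mice (median 9.09), with an interaction of 0.72 ± 0.16 (adjusted p = 0.00137). By compartment, the interaction was lower in 18 of 32 mitochondrial and 4 of 11 peroxisomal genes, with medians of -0.34 and -0.35. Ppara (-0.52 ± 0.21, adjusted p = 0.0843) and Ppargc1a (-0.24 ± 0.10, adjusted p = 0.0916) did not pass. Both passed with array weights (adjusted p = 0.0387 and 0.0236). Without WT 4-week mice 5 and 8 the count of lower genes was 18. With arrays centred on the named genes it was 33, beside 3360 of all 22180 genes lower, against 1605 without that centring. Of all genes called in the interaction 33.2% were then higher, against 57.5%. The interaction passed in 13 of 13 macrophage markers, all higher, and in 14 of 25 proximal tubule markers, all lower.

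In WT kidneys 16 of the 55 genes were higher and 8 lower at 7 than at 4 weeks, against 15.4% and 14.1% of all genes. Echdc2, of the hydratase family, had the smallest p, at 10.63 to 11.07 at 4 weeks (median 10.99) and 11.38 to 11.60 at 7 weeks (median 11.50), a difference of 0.58 ± 0.07 (1.49-fold, adjusted p = 7.31e-07). Acox3 was at 9.64 to 10.16 (median 9.81) and then 10.63 to 10.92 (median 10.81), a difference of 0.94 ± 0.15 (1.92-fold, adjusted p = 1.75e-05). Cpt2 was at 10.27 to 10.90 (median 10.43) and then 11.04 to 11.31 (median 11.13), a difference of 0.66 ± 0.12 (1.58-fold, adjusted p = 5.54e-05). Acad8 also rose, by 0.39 ± 0.07 (adjusted p = 9.08e-05), and the ages did not overlap for any of these 4 genes. The 4 were picked by smallest p in this comparison, so the lack of overlap adds no support. All 7-week mice lay above all 4-week mice in 8 of the 55 genes and below them in 2. Over all 22180 genes these counts were 1636 and 994. Ppara rose by 0.56 ± 0.15 (1.47-fold, adjusted p = 0.00391), with its 4-week and 7-week ranges overlapping between 9.34 and 9.45.

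Lower in older WT kidneys were Acadsb (-0.45 ± 0.08, adjusted p = 0.000107), Acot13 (-0.54 ± 0.11, adjusted p = 0.000231), Eci1 (-0.41 ± 0.09, adjusted p = 0.000989) and Hadhb (-0.39 ± 0.10, adjusted p = 0.00239). Acadsb ran from 9.94 to 10.19 at 4 weeks (median 10.06), above all its 7-week values. Acot13, a thioesterase that associates with mitochondria, ran from 11.05 to 11.61 at 4 weeks (median 11.42) and from 10.76 to 10.91 at 7 weeks (median 10.85), again without overlap. Eci1 ran from 10.16 to 10.78 (median 10.40) and then from 9.86 to 10.21 (median 9.97), and Hadhb from 6.53 to 7.11 (median 6.81) and then from 5.99 to 6.73 (median 6.38), both with overlap. Proximal tubule markers were higher in 11 and lower in 1 of 25 between the same groups. Without WT 4-week mice 5 and 8 the counts were 12 higher and 6 lower. With each array centred on its median over all features they were 22 and 5, beside 4922 higher and 1848 lower of all 22180 genes. Then 72.7% of all called genes were higher, against 52.1%.

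In KO kidneys the counts ran the other way, with 7 of the 55 genes higher and 28 lower at 7 than at 4 weeks, against 21.4% and 21.3% of all genes. Acadsb, lower in older WT mice as well, ran from 9.37 to 10.14 in KO mice at 4 weeks (median 9.99) and was lower by 0.83 ± 0.08 (1.77-fold, adjusted p = 2.27e-09) at 7 weeks. Etfa ran from 9.94 to 10.55 at 4 weeks (median 10.40) and was lower by 0.80 ± 0.09 (adjusted p = 7.04e-09). Acot13 ran from 10.77 to 11.77 at 4 weeks (median 11.40) and from 10.29 to 10.83 at 7 weeks (median 10.46), a difference of -0.87 ± 0.11 (adjusted p = 6.42e-08). Echs1 was lower by 0.56 ± 0.09 (adjusted p = 3.06e-06). Higher in older KO kidneys were Acot7 (0.64 ± 0.10, adjusted p = 3.82e-06), Acot2 (0.68 ± 0.15, adjusted p = 0.000316), Acsl4 (0.46 ± 0.10, adjusted p = 0.000357) and Cpt1a (0.56 ± 0.13, adjusted p = 0.000498). Acot2, a mitochondrial thioesterase, ran from 9.11 to 10.40 at 4 weeks (median 9.36) and from 9.89 to 10.48 at 7 weeks (median 10.12), and Cpt1a from 10.54 to 11.84 (median 11.15) and then from 11.57 to 11.80. Between the same groups macrophage markers were higher in 13 of 13, and proximal tubule markers higher in 3 and lower in 13 of 25. With each array centred on its median over all features 9 of the 55 genes were higher and 25 lower, beside 5739 and 3093 of all 22180 genes. Then 65% of all called genes were higher, against 50.1%. With arrays centred on the named genes 35.1% were.

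The age differences of the genotypes, each read beside its interaction test, fell into a few patterns. In 8 genes (Acad8, Acad10, Acad11, Acad12, Acads, Acot6, Acox3 and Echdc2) the signal was higher with age in WT mice, did not pass in KO mice, and the interaction was lower. In 13 genes (Acad9, Acadm, Acat1, Acot4, Acot12, Acsm1, Acsm2, Acsm5, Echdc3, Echs1, Eci3, Etfdh and Hadh) the signal did not pass in WT mice, was lower with age in KO mice, and the interaction was lower. Acot2, Acot7, Cpt1a and Cpt2 were higher with age in both genotypes with no interaction call. Acadsb and Etfa were lower with age in both, with a lower interaction. The comparisons share groups, so these are descriptions. Leaving out 1 mouse at a time, the interaction calls of Acad10, Acad11, Acadvl and Acot6 were lost in 3, 13, 5 and 21 of 32 fits (adjusted p up to 0.0518, 0.069, 0.0598 and 0.0751), the WT age call of Acad12 in 3 (up to 0.0571) and the KO age call of Hadh in 5 (up to 0.0959). Without WT 4-week mice 5 and 8 the interaction no longer passed for Acad10, Acad11, Acadvl, Acox3, Etfdh and Hadh (adjusted p = 0.067, 0.0987, 0.0799, 0.0631, 0.0594 and 0.0501), and with the mean of its features it no longer passed for Acot4 (0.0583). With the replicate number as a block it no longer passed for Acot6 (0.0572). Of the 35 genes lower in KO than in WT mice at 7 weeks, 12 were higher with age in WT mice and 4 were lower. Both comparisons use the WT mice of 7 weeks, and the share among all lower genes is not given here.

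**Figure D4:**
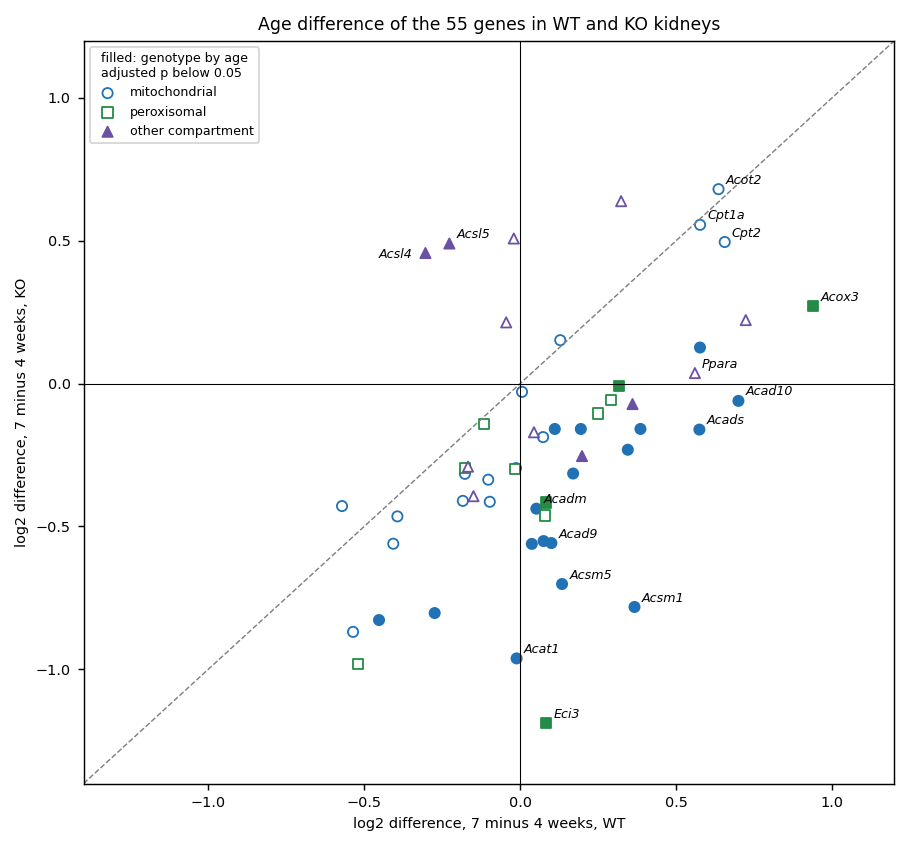
The log2 difference between 7 and 4 weeks is plotted in WT mice (horizontal axis) against KO mice (vertical axis) for the 55 genes, with filled symbols for an interaction that passed and a dashed line for equal differences. Filled symbols lie below the line for 24 genes, with Eci3, Acsm1 and Acat1 furthest from it, and above it for Acsl4 and Acsl5.

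Genes around the pathway, in lists from general knowledge, were counted in the 7-week comparison. Over all genes 16.7% were lower and 15.6% higher there, with a median of -0.06. Of 26 carnitine, fatty acid transport and ketone genes 13 were lower and 2 higher (median -0.20). The lower ones included Mlycd, which degrades malonyl-CoA (-0.65 ± 0.08, 1.56-fold, adjusted p = 1.28e-07), and the carnitine transporter Slc22a5 (-0.73 ± 0.10, 1.65-fold, adjusted p = 3.3e-07). Acss2, which activates acetate, was lower 1.7-fold (adjusted p = 1.8e-06) and Lpin1, a phosphatidate phosphatase that also coactivates PPARα, 2.02-fold (adjusted p = 6.23e-06). Higher were the lipid droplet coat gene Plin2 (1.41 ± 0.17, 2.65-fold, adjusted p = 3.44e-08) and the pyruvate dehydrogenase kinase Pdk4 (1.13 ± 0.27, 2.19-fold, adjusted p = 0.00125). Angptl4 (0.49 ± 0.24, adjusted p = 0.123) and Fabp1 (0.22 ± 0.15, adjusted p = 0.305) did not pass.

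Of 36 other peroxisomal genes 28 were lower and 1 higher, with a median of -0.34. Among the lower were Pipox, an oxidase of pipecolic acid (-0.48 ± 0.06, adjusted p = 1.43e-07), the membrane protein gene Pxmp2 (-0.89 ± 0.12, adjusted p = 3.5e-07), Phyh, which starts α-oxidation of phytanic acid (-0.72 ± 0.10, adjusted p = 8.44e-07), and the biogenesis factor Pex10 (-0.57 ± 0.08, adjusted p = 1.09e-06). The 1 higher gene was Abcd2, a very long-chain acyl-CoA transporter (0.86 ± 0.17, 1.81-fold, adjusted p = 0.000104). Crot and Far1 did not pass (-0.35 ± 0.14 and -0.24 ± 0.10).

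Among 22 other regulators of lipid oxidation 14 were lower and 1 higher, with a median of -0.31. Klf15, a transcription factor of amino acid and lipid use, was lower by 1.22 ± 0.14 (2.32-fold, adjusted p = 1.38e-08), the mitochondrial deacylase Sirt3 by 0.77 ± 0.12 (1.71-fold, adjusted p = 2.36e-06) and Hnf4a, a receptor that defines the proximal tubule and is also among its markers here, by 0.47 ± 0.08 (adjusted p = 2.66e-05). Prkaa1, an AMP-activated kinase subunit, was higher by 0.30 ± 0.07 (adjusted p = 0.00121). Nrip1 and Ppard did not pass (0.19 ± 0.09 and -0.18 ± 0.16).

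Of 12 PPARα target genes outside β-oxidation 3 were higher and 2 lower, with a median of 0.11, beside 15.6% higher, 16.7% lower and a median of -0.06 over all genes. The higher ones were Plin2 and Pdk4, both also in the list of transport genes, and the fatty acid ω-hydroxylase Cyp4a14 (1.72 ± 0.58, 3.29-fold, adjusted p = 0.0215). Cyp4a14 signals varied widely within a group, from 5.38 to 8.33 in WT (median 6.20) and from 6.01 to 10.65 in KO mice at 7 weeks (median 7.49). Lower were the monoglyceride lipase Mgll (-0.64 ± 0.11, adjusted p = 2.44e-05) and Cyp4a12a (-1.08 ± 0.32, adjusted p = 0.0081). Angptl4 and Pex11a did not pass.

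The labels and the tissue were checked with single genes and markers. Col4a3 ran from 8.46 to 9.33 in WT and 7.60 to 8.42 in KO mice at 4 weeks, and from 8.74 to 9.06 in WT and 6.97 to 7.87 in KO mice at 7 weeks, without overlap at either age. The labels do not say which exons its probes cover. Arrays of 1 group correlated at 0.965 to 0.995. Fat cell markers stayed between 5.48 and 6.13 in mean signal in all mice, and skeletal muscle markers between 4.94 and 5.28. Brown fat markers averaged at most 5.78 except in KO 4-week mouse 3, at 6.53. Without that mouse the counts lower were 35 at 7 weeks and 22 in the interaction.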

How the data were processed

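Whole-kidney RNA of 32 mice was hybridised to 1 array each. Per the labels, kidneys were kept in RNAlater, RNA came from the miRNeasy Mini Kit, and the authors deposited gene-level log2 values after RMA. The submitters' processing notes name Affymetrix Expression Console, with no version, and scanner files were not used here. Each of the 32 columns matched 1 sample, and p-values measure the spread between the mice.

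Of 41345 features, 23521 named 1 gene symbol, 1814 several and 16010 none in the annotation used here. The feature with the highest mean was kept for each of 22180 genes, with no filter on low values. More than 1 feature existed for 2 of the 55 genes. A linear model in limma 3.58.1 (R 4.3.3, data.table version 1.17.8) held a mean for each of 4 groups, with 28 residual degrees of freedom, and gave 5 comparisons. The Benjamini-Hochberg adjustment ran over all 22180 genes, with a threshold of 0.05. Errors are standard errors of the fit, confidence limits are 95%, and a fold is 2 to the power of the size of the log2 difference. On data simulated for KO against WT at 7 weeks over 22180 genes, 100 genes were changed by 0.5 and 100 by 1 on the log2 scale. The noise was normal, with 1 SD per gene for all groups. There 80% of changes of 0.5 and 96% of changes of 1 were recovered, with 10 false calls. The real comparison called 3698 genes lower and 3469 higher, and SDs differed between groups, so these rates hold for the simulated setting alone. Tables and plots used Python 3.11.15, numpy 2.4.6, pandas 2.3.3 and matplotlib 3.10.9.

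The genes and the lists were chosen with earlier results of these data known. Values by mouse are given for Ppara, Ppargc1a, up to 3 genes per direction and role with the smallest p at 7 weeks, and up to 4 per direction with the smallest p in the interaction and in each age comparison. Other pathway genes are named up to 4 per direction and list by smallest p, plus at most 2 of those not passed, by size of change. Marker lists name up to 3 genes by highest mean. All 55 symbols matched RefSeq, and no coordinates of array features are given because no label or header names the array's build. Alternatives were 2 ways of centring arrays, the mean over features, a filter at a mean of 6, array weights, trend and robust moderation, a fit of the groups compared, the replicate number as a block, the omission of pairs of 4-week mice, and the omission of each mouse.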

Additional observations from a re-analysis of the deposited data

Results flagged for a closer look

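In groups of 8 mice, a mouse stood apart when its gap to the nearest other mouse, divided by the range of the group, passed Dixon's critical value. This was so in 15 of 220 pairs of gene and group, and chance alone flags about 1 in 20. KO mouse 4 at 4 weeks was the lowest for 6 genes, with gaps of 0.551 for Acad9, 0.626 for Acadsb, 0.638 for Acat1, 0.624 for Acox2, 0.607 for Eci3 and 0.613 for Etfa. The same mouse had the highest signals of its group for Ppara (9.58), Cpt1a (11.84), Cpt2 (11.03) and Acot2 (10.40), chosen after their values were seen. WT mouse 1 at 4 weeks was the highest for Acot3 (0.549), Acox2 (0.682) and Ppara (0.594). At 7 weeks KO mouse 6 was the lowest for Acot12 (0.608) and Ppara (0.528). WT mouse 1 was the highest for Etfa (0.53) and Etfb (0.591), WT mouse 2 the lowest for Acsm5 (0.628) and WT mouse 5 the lowest for Acot6 (0.722).

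The genotype difference changed between the ages, by the interaction in limma, for 26 genes. It was higher at 7 weeks for Acsl4 (0.76) and Acsl5 (0.72). It was lower, on the log2 scale, for Eci3 (-1.27), Acsm1 (-1.15), Acat1 (-0.95), Acsm5 (-0.84), Acad10 (-0.76), Acads (-0.74), Acox3 (-0.67), Acad9 (-0.66), Acsm2 (-0.63), Echs1 (-0.60), Acad12 (-0.58), Acad8 (-0.54), Etfa (-0.53), Acot4 (-0.50), Acadm (-0.49), Echdc3 (-0.48), Acot12 (-0.45), Echdc2 (-0.45), Acad11 (-0.43), Acadsb (-0.38), Acadvl (-0.35), Acot6 (-0.33), Etfdh (-0.28) and Hadh (-0.27).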

How the results depend on the processing

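Of the counts of genes, 1 moved by more than 1.5 times under an alternative other than leaving out a mouse, that of genes lower with age in WT mice, which was 8 and became 5 with each array centred on its median over all features. The count lower at 7 weeks was between 35 and 47 over the alternatives, with 47 from centring on the named genes, where 29 mitochondrial and 11 peroxisomal genes were lower. That centring called 8324 of all 22180 genes lower, against 3698 without it. For the 55 genes at 7 weeks, the 26 called in the interaction and both regulators at 4 weeks, 767 values under the alternatives kept direction and side of the threshold, 25 passed newly, 9 no longer passed and 0 reversed. Of the genes with no interaction call, 10 passed in at least 1 alternative, 9 of them with centring on the named genes (Acaa1a, Acaa1b, Acaa2, Acot11, Acot13, Ehhadh, Etfb, Ppara and Ppargc1a) and the other, Cpt1c, with array weights and with the filter on low signals. Leaving out 1 mouse at a time gave 34 to 37 lower and 3 to 4 higher at 7 weeks, 20 to 23 mitochondrial and 9 to 10 peroxisomal genes lower, 20 to 28 lower and 2 to 3 higher in the interaction, 13 to 18 higher and 7 to 10 lower with age in WT mice, 7 to 8 higher and 27 to 30 lower with age in KO mice, and 0 at 4 weeks. At 7 weeks 37 of 39 calls were kept in all 32 such fits. Calls of age were lost in some fits for Acaa1a, Acad12, Acox2, Acsl4 and Ehhadh in WT mice and for Acot9 and Hadh in KO mice. The labels number the mice and do not say that the numbers pair them. Correlations of same-numbered mice ran from -0.27 to 0.23, which cannot settle whether any mice were paired. With the replicate number as a block 35 genes were lower and 4 higher at 7 weeks, and 23 were lower and 2 higher in the interaction, where Acot6 no longer passed (adjusted p = 0.0572). With the block, other counts were 0 at 4 weeks, 16 higher and 8 lower with age in WT mice and 7 higher and 28 lower in KO mice, and 21 mitochondrial and 9 peroxisomal genes were lower at 7 weeks. A fit of only the groups compared cannot give the interaction, which needs all 4. With 8 arrays a group, the array's low end limits Acsm4 and Acot5, whose signals stayed below 5. Signals of Acsl6 (5.28 to 6.00) and Hadhb (5.95 to 7.11) were also low in the 4 groups.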
